A study of Mus musculus with 8 samples.

Results

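Mouse embryonic fibroblasts (MEFs) were compared with the induced pluripotent stem cells made from MEFs with the 4 factors *Oct4*, *Sox2*, *Klf4* and *Myc*, called MEF 4F iPSCs. Both arrays carry the strain label B6D2F1/J, as does the array of embryonic stem cells (ESCs) that served as the target level. The MEFs are labelled as not pluripotent, the MEF 4F iPSCs and the ESCs as pluripotent. The series text gives the MEFs, the ESCs and the neural stem cells a Tet-On background and names none for the MEF 4F iPSCs. Per the study's methods, the MEF 4F iPSCs were at passage 7 and grew in 2i medium with feeder cells underneath, and so did the NSC 2F iPSCs, which are iPSCs made from neural stem cells (NSCs) with *Oct4* and *Klf4*. The culture of the ESCs, the age of the embryos and the number of animals or clones behind each array are not given in the sources used here. The members were the probes detected, at a detection p under 0.01, on at least 1 of the MEF and MEF 4F iPSC arrays. There were 13527 such probes of 25697, and they read 9233 of the 16593 genes with a probe.

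Reprogramming to pluripotency turns a differentiated cell into one that can form all tissues of the body. *Oct4* (*Pou5f1*), *Sox2* and *Nanog* form the core of the network that maintains that state. Fibroblasts that take this path also give up their mesenchymal shape and take on an epithelial one, with E-cadherin at the cell contacts. They leave a slow, inhibitor-controlled cell cycle for the rapid cycle of ESCs, and they stop making most of the collagen-rich matrix that defines them. The comparison asks how far each of these programs had moved in the MEF 4F iPSCs.

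Total RNA was labelled as biotin cRNA and hybridised to Illumina bead arrays, with 1 array for each cell type, so that no difference has a replicate check, an error or a p-value. Levels are log2 intensities normalized over all 8 arrays of the series. A probe that was not detected on an array was set to the lowest detected level of that array, between 4.97 and 5.27, and a fold against such a level is written as "at least". A difference was called when it reached 2-fold and the higher side was detected. Of the 8 arrays, the MEF 4F iPSC array had the most probes detected, 12128, and the ESC array the fewest, 11087, while the MEF array had 11666. Of the member probes, 10267 were detected on both arrays, 1399 on MEFs only and 1861 on MEF 4F iPSCs only. At the edge of the rule, the 178 probes at a detection p of 0.00877 had levels between 4.97 and 5.10 on the brighter array, and the 60 probes at 0.01, just outside, had levels between 4.96 and 5.09.

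MEF 4F iPSCs differed from MEFs by at least 2-fold in 3965 of 9233 genes, which is 42.9%. Of these, 2020 genes were higher in the iPSCs (21.9%) and 1945 were lower (21.1%), and the median difference over all 9233 genes was 0.03 on the log2 scale. By probe, 2788 of 13527 were higher (20.6%) and 2767 lower (20.5%). At 16-fold the counts were 130 probes higher and 160 lower, and at 64-fold they were 28 and 15. MEFs gave no detected signal for 684 of the higher probes, and MEF 4F iPSCs gave none for 586 of the lower ones, so that these folds are lower bounds. Of 2487 genes with more than 1 member probe, 4 had probes called in opposite directions, namely *Cd44*, *Dph3*, *H3c14* and *Zfp277*.

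**Figure D1:**
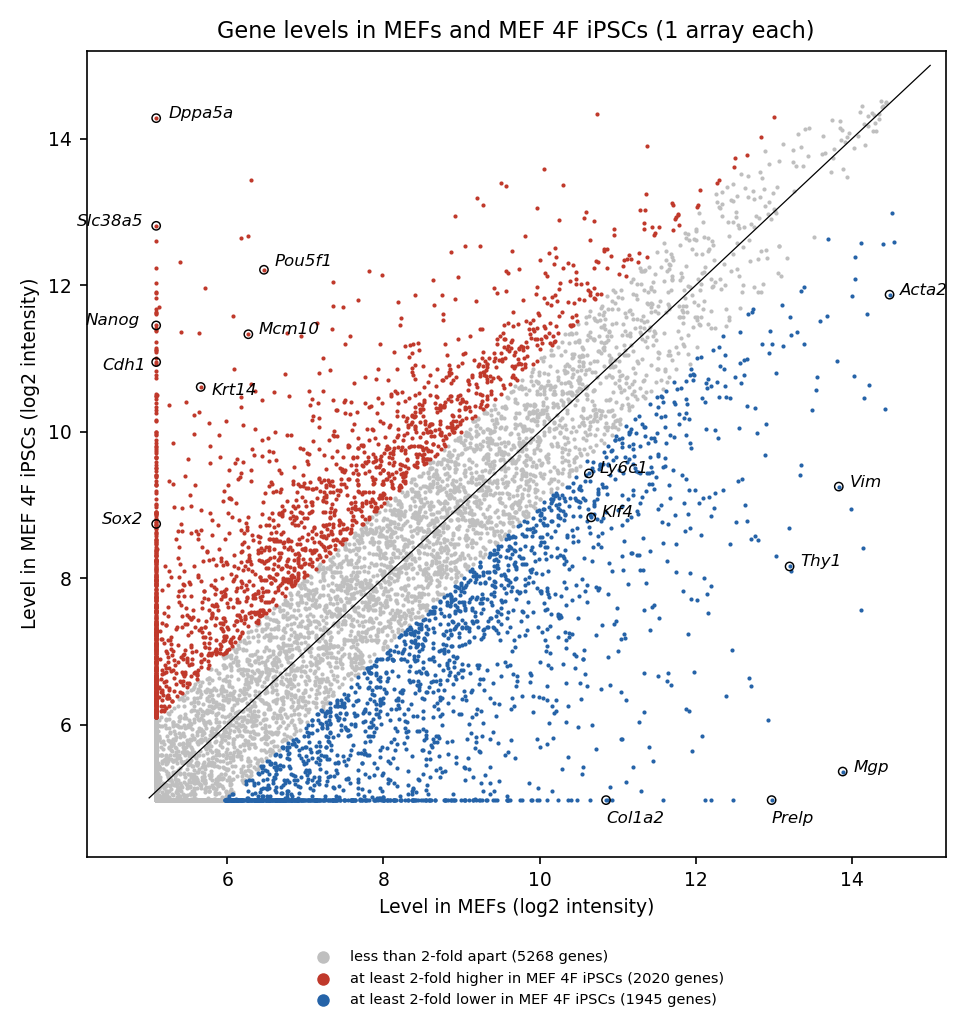
Level of each of 9233 genes in MEFs (x axis) and in MEF 4F iPSCs (y axis), both as log2 intensity, with 1 array per axis. Genes at least 2-fold higher in the iPSCs are red, those at least 2-fold lower are blue, the black line marks equal levels, and points in a line at the left or lower edge were not detected on that array. The cloud splits almost evenly, with *Dppa5a* at 14.28 against no detected level at the upper left and *Vim* at 9.25 against 13.83 at the right.

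The genes with the 10 largest differences upward, with undetected values at the lowest detected level, were *Dppa5a*, *Slc38a5*, *Rhox5*, *Dppa4*, *Chchd10*, *Ooep*, *Dnmt3b*, *Sall4*, *Gstp2* and *Dnmt3l*. All but *Chchd10* and *Dnmt3b* were not detected in MEFs, so their differences are lower bounds and have no order among themselves. *Dppa5a*, an RNA-binding protein of early embryos and ESCs, was not detected in MEFs and reached 14.28 in MEF 4F iPSCs, at least 583-fold higher, beside 14.22 in ESCs. *Rhox5*, a homeobox gene of the X-linked reproductive cluster, went from not detected to 12.60, at least 182-fold higher. *Chchd10*, a mitochondrial protein, was measured on both arrays, at 6.31 in MEFs and 13.43 in the iPSCs, a 138-fold difference. All of these 10 genes but 1 were within 2-fold of ESCs, the exception being *Slc38a5*, an amino acid transporter that stood at 12.81 in MEF 4F iPSCs and was not detected in ESCs.

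The genes with the 10 largest differences downward were *Mgp*, *Prelp*, *Ccn5*, *Ogn*, *Ptn*, *Ccdc80*, *Ptx3*, *Timp2*, *Vegfd* and *Cyp1b1*. *Mgp*, a matrix protein that inhibits calcification, was at 13.88 in MEFs, 5.36 in MEF 4F iPSCs and 5.38 in ESCs, 367-fold lower in the iPSCs than in the MEFs. *Prelp* and *Ogn*, both small leucine-rich proteoglycans, were at 12.97 and 12.20 in MEFs and were not detected in the iPSCs, which makes them at least 256-fold and 151-fold lower. *Timp2*, an inhibitor of matrix metalloproteinases, was the one of the 10 that had not reached the ESC level, at 7.57 against 14.11 in MEFs and 6.36 in ESCs.

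The 4 reprogramming factors themselves did not move together. *Pou5f1* (*Oct4*) was at 6.47 in MEFs, 12.21 in MEF 4F iPSCs and 12.79 in ESCs, a 53.6-fold difference between the first pair. *Sox2* was not detected in MEFs and stood at 8.74 in the iPSCs and 9.51 in ESCs, at least 12.5-fold higher than in MEFs. *Klf4*, a zinc finger factor that fibroblasts also express, was 3.55-fold lower in the iPSCs, at 8.83 against 10.66 in MEFs and 10.10 in ESCs. Its other probes differed by only -0.10 and -0.24 on the log2 scale, so the lower *Klf4* rests on 1 of 3 probes. *Myc*, a driver of growth and division, was not detected in MEFs or ESCs and stood at 7.10 in MEF 4F iPSCs, at least 4.03-fold higher than in MEFs, and of the other arrays only NSCs detected it, at 6.11. Whether these probes also read RNA from the introduced copies of the factors was not tested.

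The gene lists below count as measured the genes detected in MEFs or in MEF 4F iPSCs, so a gene detected on one of these arrays only could be called in 1 direction only. Counts and medians of a list therefore describe its measured genes and are partly set by that rule. Over all 9233 genes, 21.9% were higher and 21.1% lower than in MEFs, which is the background for every list count below. For counts against ESCs, the background is 6.02% of genes above and 2.86% below. The pluripotency list held 35 genes on the array, of which 9 were detected in MEFs and 32 in MEF 4F iPSCs. Of the 32 measured, 31 were at least 2-fold higher in the iPSCs, with *Klf4* as the only one lower, and the median difference was 4.47, against 0.03 over all genes. *Nanog*, the homeobox factor that stabilises the ground state, went from not detected to 11.45, at least 82.2-fold higher, beside 12.27 in ESCs. *Sall4* and *Esrrb*, transcription factors that share targets with *Oct4*, went from not detected to 11.91 and 11.41, at least 113-fold and 79.9-fold higher. *Zfp42* (*Rex1*) reached 8.81 and *Fgf4*, the growth factor of the early embryo, reached 7.37, both from no detected level in MEFs. *Lin28a*, which blocks maturation of let-7 microRNAs, reached 9.41, beside 9.24 in ESCs.

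Against ESCs, 26 of 33 pluripotency genes detected in either cell type were within 2-fold in MEF 4F iPSCs, none was higher and 7 were lower, and the list's median was -0.59. Over all genes detected in either cell type, 6.02% stood at least 2-fold above ESCs and 2.86% below, together 8.88% of 8567 genes. The same count was 6.03% of 8193 genes for NSC 2F iPSCs against the same ESC array, and 0.456% of 8338 genes between the iNdiPSC clones, 2 lines made from induced neural stem cells. *Tcl1*, a co-activator of Akt kinase, was 4.58-fold below ESCs, at 7.69 against 9.88. *Dppa3* (*Stella*), which protects methylation in the early embryo, was 2.69-fold below, at 7.90 against 9.32. NSC 2F iPSCs stood at 9.95 for *Tcl1* and 9.91 for *Dppa3*, and the iNdiPSC clones at 9.13 and 8.90 for *Tcl1*.

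*Nanog* is shown with its promoter because it carries the pairing of sites through which Oct4 and Sox2 bind side by side. The composite motif, CATTGT for Sox2, then any base, then ATGCAAA for Oct4, was searched on both strands of all 32851 promoters of 300 bases in the RefSeq table for GRCm38.p6, from 250 bases before each gene's start to 50 after it. It was found in 2 of them, which is 0.00609%, and both are listed for *Nanog*. The *Nanog* promoter below lies at chr6:122707239-122707538 on the plus strand and is written 5′ to 3′, with the motif, here on the reverse strand at -75 to -62 from the start, in capitals.
Nanog: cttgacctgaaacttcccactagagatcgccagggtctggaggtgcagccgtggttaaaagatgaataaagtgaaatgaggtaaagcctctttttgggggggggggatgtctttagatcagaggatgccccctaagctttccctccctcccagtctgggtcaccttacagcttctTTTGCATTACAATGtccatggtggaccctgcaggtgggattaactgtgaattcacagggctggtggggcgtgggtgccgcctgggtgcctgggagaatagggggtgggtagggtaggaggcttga
Of the pluripotency list, 22 measured genes had a promoter in the table, and *Nanog* was the 1 of these that held those letters. A match describes the sequence only and is no evidence of binding in these cells.

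**Figure D2:**
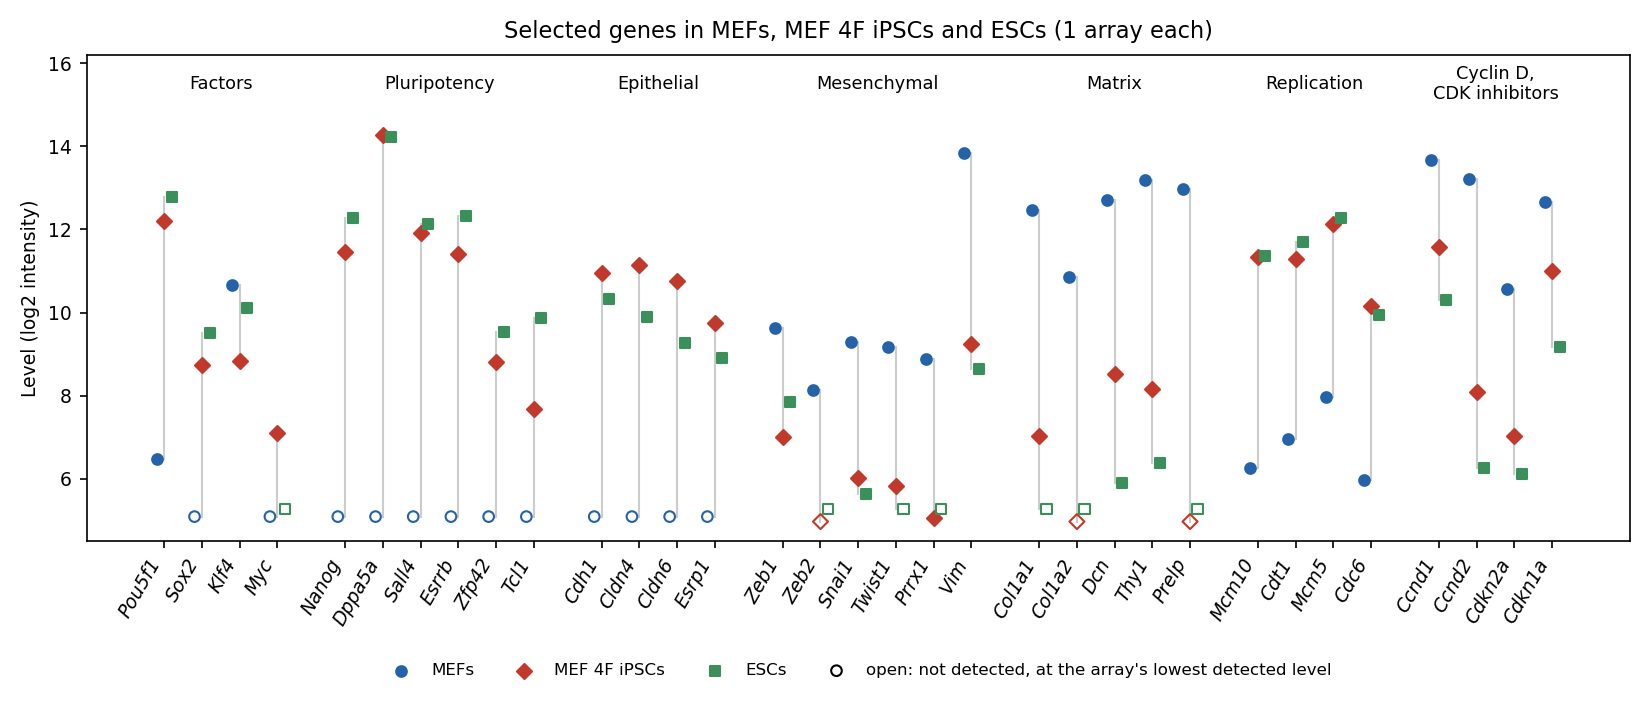
Level (y axis, log2 intensity) of selected genes in MEFs (blue circles), MEF 4F iPSCs (red diamonds) and ESCs (green squares), with 1 array each and open symbols where the gene was not detected. Red and green stand together for most pluripotency and replication genes, *Klf4* in the iPSCs lies below both other cell types at 8.83, and *Dcn*, *Thy1* and *Ccnd2* lie between MEFs and ESCs.

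Genes of DNA methylation moved with the pluripotency genes. Of 9 measured, 8 were at least 2-fold higher in MEF 4F iPSCs, none was lower, and all 9 were within 2-fold of ESCs. Over all genes, 21.9% were higher than in MEFs, and 8.88% were at least 2-fold from ESCs. *Dnmt3b*, which sets new methylation marks, stood at 5.39 in MEFs, 12.31 in the iPSCs and 12.07 in ESCs, 122-fold higher. Its second probe was not detected in MEFs and was at least 3.33-fold higher. *Dnmt3l*, the partner of the de novo enzymes, went from not detected to 11.82. *Uhrf1*, which guides the maintenance enzyme to newly copied DNA, differed 12-fold, and the maintenance enzyme *Dnmt1* itself 4.68-fold, from 7.26 to 9.49. *Mbd3*, at 8.48 and 8.82, was the member that did not reach 2-fold.

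Of 35 chromatin factors, 19 were higher and 4 lower, with a median of 1.28, where 21.9% of all genes were higher and 21.1% lower. The Polycomb genes *Phc1*, *Mtf2*, *Ezh2* and *Suz12* were 20.9-fold, 14.8-fold, 9.33-fold and 7.07-fold higher. *Smarca2*, *Smarcc2* and *Smarcd3*, subunits of the BAF remodelling complex, were 5.74-fold, 4.15-fold and at least 4.57-fold lower, while the alternative subunit *Smarcc1* was 2.53-fold higher and *Smarca4* differed by 1.55-fold. *Bmi1*, a Polycomb gene, was 3.03-fold lower. Between MEF 4F iPSCs and ESCs, 8.88% of all genes detected in either were at least 2-fold apart. All but 1 of 34 chromatin genes detected in MEF 4F iPSCs or ESCs were within 2-fold between these, and *Smarca2* was the exception, at 7.75 against 5.95 in ESCs and 10.27 in MEFs. Its second probe was at 5.14 in MEFs and not detected in the iPSCs or ESCs.

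Genes of the germline and the cleaving embryo were mostly not detected in MEFs, where 1 of 24 on the array was detected, against 14 in MEF 4F iPSCs. Of the 14, 11 were at least 2-fold higher, and all but 1 were measured through the iPSC array only and could not have been lower. *Zscan4c*, a marker of the 2-cell-like state, reached 8.87 from not detected, beside 8.17 in ESCs. *Dazl*, an RNA-binding protein of germ cells, reached 8.20, beside 8.19. *Rhox9* and *Rhox6* were the members below ESCs by at least 2-fold, at 8.40 and 6.67 against 10.30 and 8.62. Of 8 genes linked to the primed epiblast, 5 were higher, among them *Otx2* at 8.26 from not detected and *Lefty1* at 10.27 from 5.64. *Fgf5*, a marker of the primed state, was detected in MEFs at 7.38 and not in the MEF 4F iPSCs, ESCs or NSC 2F iPSCs. In the iNdiPSC clones it was at 5.35 and 5.24, near the lowest detected level.

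Of 23 junction genes of epithelia on the array, 3 were detected in MEFs, 16 in ESCs and 20 in MEF 4F iPSCs. Of these 20, 15 were at least 2-fold higher in the iPSCs than in MEFs, and most entered through the iPSC array only. *Cdh1*, E-cadherin, went from not detected in MEFs to 10.95 in the iPSCs and 10.32 in ESCs, at least 57.9-fold higher. *Cldn4* and *Cldn6*, tight junction proteins, reached 11.14 and 10.77 from not detected. *Esrp1*, a splicing regulator of epithelial cells, reached 9.76, and *Grhl2*, an epithelial transcription factor, 8.60. Against ESCs, 6 of 20 stood at least 2-fold higher in MEF 4F iPSCs and none lower, with *Cldn3* at 8.15 and *Ppl*, a plakin of the cell cortex, at 8.19, neither of which was detected in ESCs. Over all genes, 6.02% stood above ESCs. The summed signal of the list was 9870 intensity units in MEF 4F iPSCs and 5010 in ESCs. It was 8630 in NSC 2F iPSCs and 8340 and 10300 in the iNdiPSC clones, so these lines also stood above ESCs.

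All 13 genes of the mesenchymal transition on the array were detected in MEFs and were at least 2-fold lower in MEF 4F iPSCs, where 10 were detected, with a median of -3.26. *Zeb1* and *Zeb2*, repressors of E-cadherin, stood at 9.64 and 8.13 in MEFs, and in MEF 4F iPSCs *Zeb1* was 6.24-fold lower at 7.0 and *Zeb2* was not detected. *Snai1*, another repressor of E-cadherin, was 9.57-fold lower, and the mesodermal factors *Twist1*, *Twist2* and *Prrx1* were 10.2-fold, 13.1-fold and 14.3-fold lower. *Vim*, the intermediate filament of mesenchymal cells, was 23.8-fold lower at 9.25, beside 8.65 in ESCs. *S100a4* was the one member at least 2-fold above ESCs, at 8.00 against 5.30, and NSC 2F iPSCs stood at 6.29.

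Zeb and Snail proteins bind the E-box CAGGTG, so the junction gene promoters are shown for that motif. Of 11 measured junction genes with a promoter in the table, 10 held CAGGTG on either strand, which is 90.9%, against 22.6% of all 27025 genes in the table. Among all genes higher in MEF 4F iPSCs the share was 24.7%, among those lower 17.5% and among those called neither way 21.0%. The motif was also held by 11 of 22 genes of the pluripotency list and 7 of 14 of the epidermal list. The 10 genes included 6 that were at least 2-fold higher, *Cldn4*, *Cldn6*, *Cldn3*, *Ap1m2*, *Rab25* and *Cldn7*, and 4 that were not, *Spint2*, *Tjp3*, *Ocln* and *Crb3*. The *Cldn4* promoter lies at chr5:134946885-134947184 on the minus strand, with E-boxes at -14 and 11, and that of *Cldn6* at chr17:23679115-23679414 on the plus strand, with E-boxes at -93 and 40, counting the start as 0 and with the motif in capitals.
Cldn4: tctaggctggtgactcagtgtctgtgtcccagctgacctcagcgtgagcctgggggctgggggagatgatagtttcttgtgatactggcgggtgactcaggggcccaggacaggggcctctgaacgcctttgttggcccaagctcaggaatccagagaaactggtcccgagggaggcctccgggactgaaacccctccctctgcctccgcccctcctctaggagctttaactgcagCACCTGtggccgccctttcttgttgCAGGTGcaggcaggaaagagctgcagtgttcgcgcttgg
Cldn6: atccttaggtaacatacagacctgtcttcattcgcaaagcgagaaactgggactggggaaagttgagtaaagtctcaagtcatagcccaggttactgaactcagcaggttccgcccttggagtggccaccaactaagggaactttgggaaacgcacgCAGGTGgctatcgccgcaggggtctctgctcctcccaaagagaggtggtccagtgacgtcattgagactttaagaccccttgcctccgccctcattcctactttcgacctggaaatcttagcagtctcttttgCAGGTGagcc
The share describes these windows and says nothing of which protein, if any, was bound.

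Fibroblast genes made up the other side of the comparison. Of 38 measured genes of the fibroblast matrix and surface, 35 were at least 2-fold lower in MEF 4F iPSCs, with a median of -3.62. *Thy1*, a surface marker of fibroblasts, was 32.7-fold lower, at 13.20 in MEFs, 8.16 in the iPSCs and 6.38 in ESCs. *Dcn*, the collagen-binding proteoglycan decorin, was at 12.71, 8.53 and 5.91. *Pdgfra* and *Pdgfrb*, receptors of platelet-derived growth factor, were 18.3-fold and at least 10.8-fold lower. *Eln*, elastin, went from 10.40 to not detected.

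The exceptions in that list were *Nt5e*, *Fbln1* and *S100a6*. *Nt5e* (CD73), a surface enzyme that makes adenosine, was 10.4-fold higher in MEF 4F iPSCs at 9.59, against 6.20 in MEFs, 5.81 in ESCs and 5.48 in NSC 2F iPSCs. *Fbln1*, a fibulin, was level at 9.22, 9.07 and 9.29 in MEFs, iPSCs and ESCs. *Cd44*, a hyaluronan receptor, was lower by 2.25 on the log2 scale with the probe used here, but its 4 other member probes were higher by 0.76 to 2.73, 2 of them measured against no detected level in MEFs, so the gene's direction depends on the probe.

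Of 16 collagen chains, all detected in MEFs and 9 in MEF 4F iPSCs, 12 were lower and none higher, and the median was -3.84. *Col1a1* and *Col3a1*, the chains of the main fibrillar collagens, stood at 12.46 and 11.91 in MEFs and at 7.02 and 6.19 in the iPSCs, and neither was detected in ESCs. *Col1a2* went from 10.85 to not detected, at least 59.1-fold lower. *Col6a1* was 72.8-fold lower. *Col18a1*, a basement membrane collagen, did not reach 2-fold and stood at 10.64, 11.36 and 10.74 in MEFs, iPSCs and ESCs.

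Of 17 contractile genes, 12 were lower and 1 higher. *Acta2*, smooth muscle actin, was at 14.48 in MEFs, 11.87 in MEF 4F iPSCs and 10.59 in ESCs, 6.10-fold lower than in MEFs. *Cald1*, an actin-binding regulator, was 16.9-fold lower and *Tagln* 10.3-fold lower. *Csrp2*, a LIM-domain protein, was the one higher, from 8.76 to 11.52, beside 12 in ESCs. Among 20 matrix proteases and their inhibitors, 12 were lower, led by *Timp2*, *Adamts5* and *Ctsk*, the last a collagen-degrading cathepsin at 11.20 in MEFs and 5.42 in the iPSCs. *Mmp9* and *Mmp10* were the 2 that were higher, by at least 3.38-fold and 2.83-fold.

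Genes that mark position along the body axis were lower where they were called. Of 24 measured *Hox* genes, 14 were at least 2-fold lower and none was higher. *Hoxc6* stood at 10.54 in MEFs and 5.33 in MEF 4F iPSCs, 37.0-fold lower, and was not detected in ESCs. *Hoxc9* and *Hoxd10* went from 7.61 and 8.39 to not detected. *Hoxa5* kept a detected level of 6.89 in the iPSCs, against 8.39 in MEFs, 5.81 in ESCs and no detected level in NSC 2F iPSCs. Of 19 factors of mesenchyme and limb, 14 were lower and none higher, among them *Nfix*, 35.4-fold lower, *Msx1*, 15.8-fold lower, and *Osr2*, 15.3-fold lower.

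Genes of DNA replication and the cell cycle were mostly higher. Of 35 measured, 29 were at least 2-fold higher in MEF 4F iPSCs and 2 lower, with a median of 2.41, and 31 of 35 were within 2-fold of ESCs. Over all genes, 21.9% were higher and 21.1% lower than in MEFs, and 8.88% were at least 2-fold from ESCs. *Mcm10*, a replication initiation factor, went from 6.27 to 11.33, beside 11.35 in ESCs, 33.5-fold higher. *Cdt1* and *Cdc6*, which load the replicative helicase, were 20.5-fold and 18.1-fold higher, and *Mcm5*, a subunit of that helicase, 17.9-fold, from 7.98 to 12.14. *Mybl2*, a driver of mitotic genes, was 23.3-fold higher and *Bub1b*, of the spindle checkpoint, 10.1-fold.

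The 2 lower genes were both D cyclins, which carry growth signals into the cycle. *Ccnd2* was 34.9-fold lower, at 13.22 in MEFs, 8.10 in the iPSCs and 6.26 in ESCs, and *Ccnd1* 4.28-fold lower, at 13.68, 11.58 and 10.30. *Ccnd3* was level at 11.51 and 11.72. Of 18 cell cycle inhibitors and p53 targets, 7 were lower and 1 higher, where 21.1% of all genes were lower and 21.9% higher. *Cdkn2a*, the locus of p16 and p19Arf, was 11.7-fold lower at 7.02, *Cdkn2b* 7.08-fold lower and *Cdkn1a* (p21) 3.16-fold lower. *Fas*, the death receptor, was 25.2-fold lower with the probe used here, and 16-fold lower with another. The remaining probe was at 5.30 in MEFs and not detected in the iPSCs, so its difference is only a lower bound. *Gadd45a*, a stress-response gene, was the one higher, 5.27-fold.

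The promoters of replication genes are shown for the motif of E2F, the factor family that times their expression. The letters TTTGGCGC or TTTCGCGC, searched on both strands, were found for 8 of 29 measured cell cycle genes with a promoter in the table, 27.6%, against 0.929% of all 27025 genes. Among all genes higher in MEF 4F iPSCs the share was 3.04%, among those lower 1.04% and among those called neither way 1.6%. The letters were also found for 2 of 9 DNA methylation genes and 1 of 8 mesenchymal transition genes. They were found for 2 of 22 interferon and MHC genes and 1 of 31 chromatin factors as well. The *Mcm5* promoter at chr8:75109259-75109558, plus strand, held both forms overlapping on opposite strands from -153 to -142, and the *Cdt1* promoter at chr8:122567765-122568064, plus strand, held TTTGGCGC at 32 to 39, with the motifs in capitals.
Mcm5: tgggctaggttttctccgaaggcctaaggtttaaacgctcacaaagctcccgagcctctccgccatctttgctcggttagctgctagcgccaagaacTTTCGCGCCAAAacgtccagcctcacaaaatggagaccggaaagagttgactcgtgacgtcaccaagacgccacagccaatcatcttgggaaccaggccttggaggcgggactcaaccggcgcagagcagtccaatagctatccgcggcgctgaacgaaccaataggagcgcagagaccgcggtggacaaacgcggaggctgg
Cdt1: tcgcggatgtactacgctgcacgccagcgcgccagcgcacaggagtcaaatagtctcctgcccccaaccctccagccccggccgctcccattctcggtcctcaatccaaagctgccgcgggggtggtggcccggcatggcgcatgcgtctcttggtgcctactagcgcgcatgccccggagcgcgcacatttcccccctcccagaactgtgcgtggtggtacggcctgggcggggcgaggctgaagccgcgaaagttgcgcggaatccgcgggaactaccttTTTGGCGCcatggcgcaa
All 8 genes, *Cdk1*, *Cdt1*, *E2f2*, *Lig1*, *Mcm3*, *Mcm5*, *Mcm6* and *Mcm7*, were at least 2-fold higher in the iPSCs, with differences from 1.63 for *Cdk1* to 4.35 for *Cdt1* on the log2 scale. Of all 35 measured genes of the list, 29 were at least 2-fold higher, with or without the motif.

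**Figure D3:**
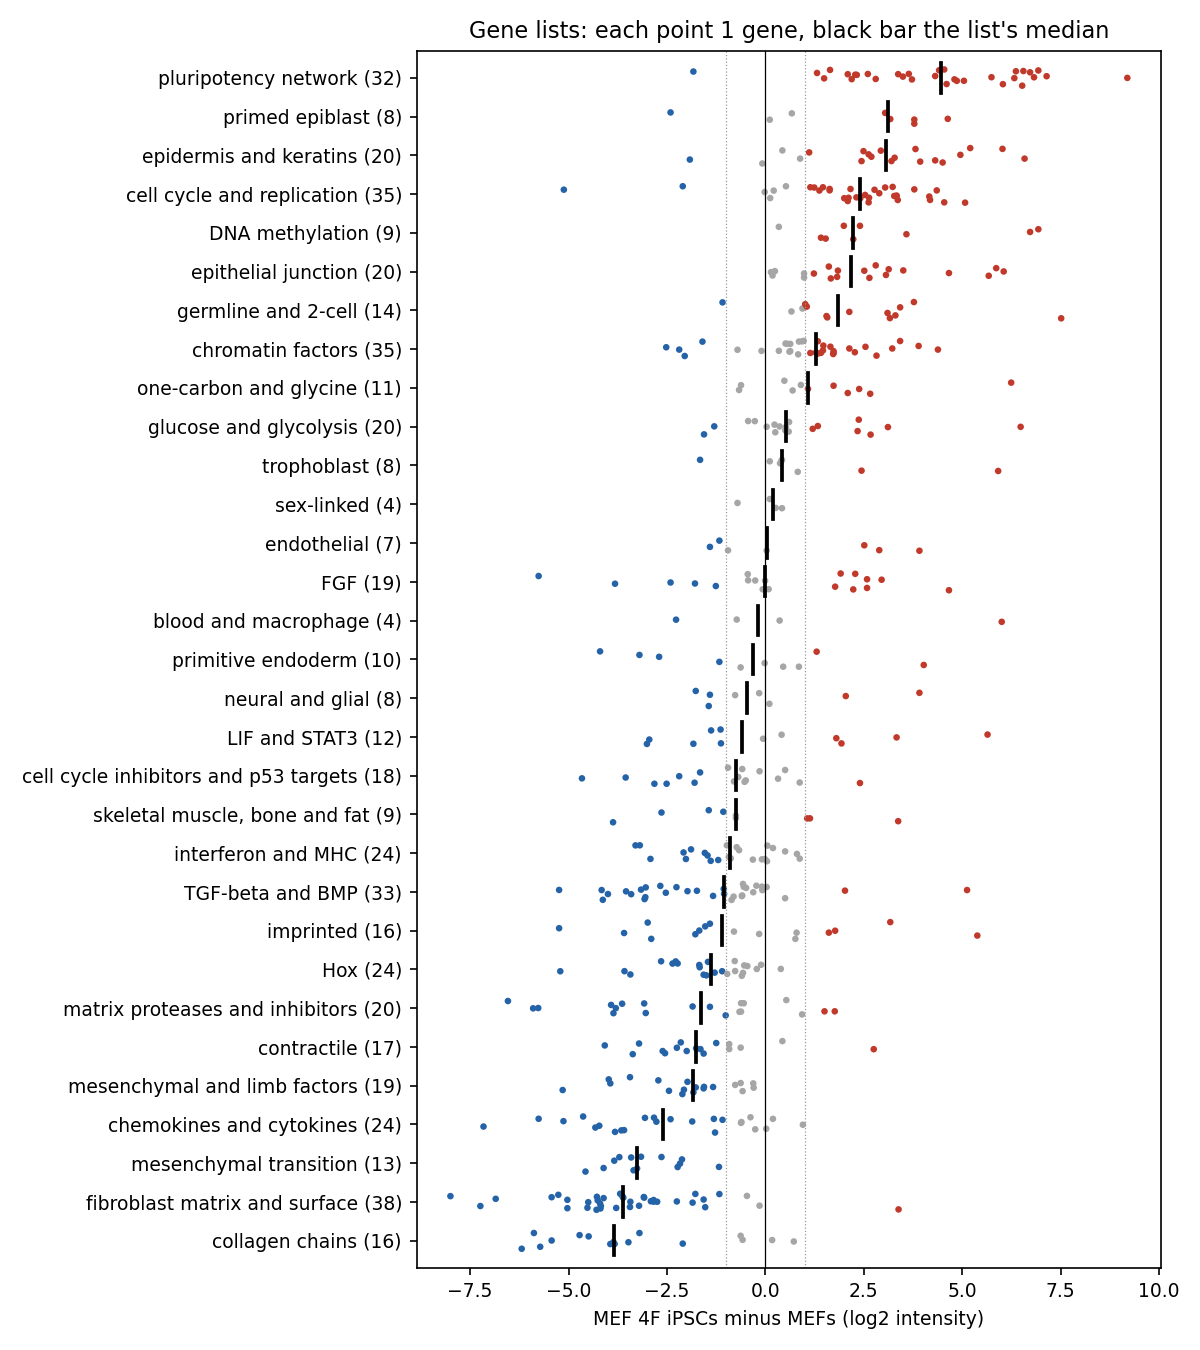
Difference between MEF 4F iPSCs and MEFs (x axis, log2 intensity) for each measured gene of 31 lists (y axis, number of measured genes in brackets), with red for at least 2-fold higher, blue for at least 2-fold lower, grey for neither and a black bar at the median. Genes detected on 1 of the arrays only could fall on 1 side only, and medians run from -3.84 for collagen chains to 4.47 for the pluripotency network, beside 0.03 over all genes.

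Signalling genes were split. Of 33 genes of TGF-beta and BMP signalling, 18 were lower and 2 higher. *Tgfb2* and *Tgfb3*, the ligands, were 6.37-fold and 17.8-fold lower. The receptor *Tgfbr2* was 8.92-fold lower at 9.20 but stayed 11.7-fold above the ESC level of 5.64. *Acvr2b*, an activin receptor, was 34.9-fold higher, from 5.25 to 10.37, and *Skil*, a repressor of Smad signalling, 4.06-fold higher. The Smad genes *Smad2*, *Smad4* and *Smad1* differed by less than 2-fold.

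Of 12 genes of the LIF and STAT3 pathway, 4 were higher and 6 lower. *Socs3* and *Pim3*, targets of the pathway, were 3.48-fold and 10.1-fold higher, and *Gbx2* reached 10.73 from not detected, while the kinase *Jak1* and *Stat3* itself were 8.03-fold and 2.60-fold lower. The receptor chain *Il6st* was detected in MEFs at 7.91 and in ESCs at 5.98 but not in MEF 4F iPSCs. Of 19 genes of FGF signalling, 8 were higher and 5 lower, where 21.9% of all genes were higher and 21.1% lower. The feedback inhibitors *Spry4*, *Dusp4* and *Dusp6* were 5.98-fold, 4.69-fold and 3.41-fold higher than in MEFs, and stood at 8.16, 8.73 and 11.83 against 6.58, 7.21 and 10.26 in ESCs. *Fgf7* and *Fgf10*, ligands made by mesenchyme, were 54.1-fold and at least 14.1-fold lower.

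Of 24 chemokines and cytokines, 17 were lower, 7 were called neither way and none was higher, among them *Ptn*, *Cxcl12*, 24.8-fold lower, and *Ccl2*, 7.09-fold lower. Of 24 interferon and MHC genes, 10 were lower, 14 were called neither way and none was higher, with *B2m*, the light chain of MHC class I, at 13.49 in MEFs, 10.30 in the iPSCs and 9.21 in ESCs. *Ifit3* was 9.86-fold lower.

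Of 20 genes of glucose use, 7 were higher and 2 lower, where 21.9% of all genes were higher and 21.1% lower. *Slc2a3*, the neuronal-type glucose transporter, was 89.0-fold higher, from 6.17 to 12.65. *Hk2* was 8.63-fold higher while *Hk1*, the other hexokinase measured, was 2.47-fold lower. The later steps *Gapdh*, *Pkm* and *Ldha* differed by 1.42-fold, 1.17-fold and 1.02-fold. *Gldc*, the glycine decarboxylase, was 75.4-fold higher, and 6 of 11 one-carbon genes were higher with none lower. Of 16 imprinted genes, 8 were lower, including *Dlk1*, 37.8-fold, and *Igf2*, 12-fold, and 4 were higher, including *Phlda2*, which reached 10.48 from not detected. All 15 imprinted genes detected in MEF 4F iPSCs or ESCs were within 2-fold of each other. Of all genes detected in either cell type, 8.88% were at least 2-fold apart.

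Taking ESCs as the target, 3105 probes were at least 2-fold higher in ESCs than in MEFs (23.6% of 13149) and 2764 were lower (21.0%). In MEF 4F iPSCs, 2830 of the 3105 were at the ESC level or past it, meaning that they were not 2-fold below it. This is 91.1% (95% exact binomial interval 90.1 to 92.1%). Of the 2764 probes higher in MEFs, 2395 were no longer 2-fold above ESCs, which is 86.6% (85.3 to 87.9%). These intervals cover the count of probes and not the spread between cultures. A probe less than 2-fold from both MEFs and ESCs counts here as at the ESC level. The shares are therefore not shares of probes that moved by 2-fold. The remaining ESC-high probes were all at least 2-fold below ESCs. Of these, 111 stood between MEFs and ESCs and 164 less than 2-fold from the MEF value. For the latter, 88 were detected in MEFs, and for the rest the MEF value is the lowest detected level of that array, so their gap to MEFs is a lower bound. The remaining MEF-high probes were all at least 2-fold above ESCs. Of these, 260 stood between, 105 less than 2-fold from MEFs and 4 above them. The 164 and the 105 probes are referred to as left at the MEF level.

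**Figure D4:**
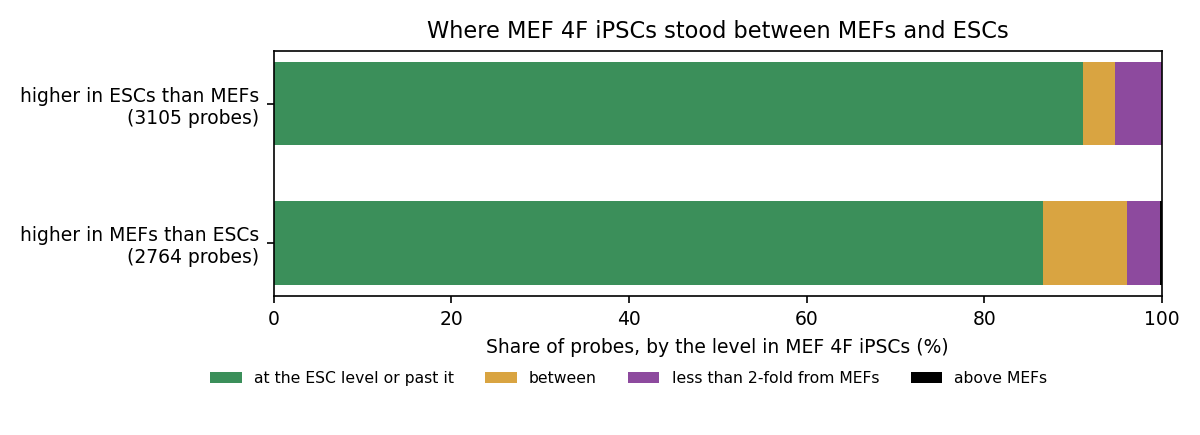
Share of probes (x axis, percent) by where MEF 4F iPSCs stood, for the 3105 probes higher in ESCs than in MEFs (upper bar) and the 2764 higher in MEFs than in ESCs (lower bar). Green, at the ESC level or past it, takes 91.1% and 86.6%, and the ochre segment of probes between the cell types is 3.57% above and 9.41% below. Green also holds probes that were less than 2-fold from both ESCs and MEFs.

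Some MEF-high genes had not moved by 2-fold and were still at least 2-fold above ESCs. Among these, the largest gap to ESCs was at *Egr1*, an immediate early transcription factor. It stood at 12.12 in MEFs, 12.25 in MEF 4F iPSCs and 8.03 in ESCs. The other 5 arrays lay between 11.77 and 13.34, so the ESC array stood apart there. *Ccn1*, a matricellular protein, stood at 11.03, 10.17 and 6.83, with 10.12 in NSC 2F iPSCs and no detected level in NSCs. *Cxcl1*, a chemokine, was at 9.31 and 8.69 in MEFs and the iPSCs, was not detected in ESCs, and was at 6.75 in NSC 2F iPSCs. *Slc2a6*, a sugar transporter, was at 7.22 and 8.07 and was not detected in any other iPSC line or in ESCs. *Egfr* and *Glrx*, an oxidoreductase of glutathione, stood 1.33-fold and 1.49-fold below MEFs. Other *Egfr* probes, at 5.49 and 6.07 in the iPSCs and not detected in ESCs, were at least 1.16-fold and 1.74-fold above ESCs. These bounds fall short of 2-fold, so the place of *Egfr* here rests on the probe used. Other *Ccn1* probes were 2.04-fold and 1.93-fold lower than in MEFs. Of the 105 probes left at the MEF level, 25 were also at least 2-fold above ESCs in all 3 other iPSC lines, which share the ESC array in that comparison.

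Among the genes that stood between, *Ly6c1*, a surface antigen, was at 10.63 in MEFs and 9.43 in MEF 4F iPSCs and was not detected on any other array. *Emp1*, a membrane protein, was at 14.51, 12.99 and 9.72 in MEFs, iPSCs and ESCs, with 11.11 in NSC 2F iPSCs. *Gas6*, the ligand of TAM receptors, was at 11.74 and 8.47 and was not detected in ESCs. *Timp3* stood at 13.33, 9.41 and 6.55, and *Map2*, *Cryab* and *Anxa5* were 4.03-fold, 4.54-fold and 2.82-fold above ESCs. Of the 260 probes, 93 were at least 2-fold higher in MEF 4F iPSCs than in NSC 2F iPSCs, 165 were within 2-fold and 2 were lower. For all probes detected in either of these lines, 3.39% were higher and 2.12% lower, but the MEF 4F iPSC array had already placed the 260 probes, so the shares are not independent of that choice.

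Of the ESC-high genes, *Ifitm1*, an interferon-induced membrane protein, was at 5.97 in MEF 4F iPSCs against 8.51 in ESCs, with 7.78 in NSC 2F iPSCs and no detected level in MEFs, so that it stood at least 1.83-fold above MEFs. *Erdr1* stood at 7.71, 8.53 and 10.29 in MEFs, iPSCs and ESCs. *Crtac1*, *Lrrc2* and *Clec2e* were detected in ESCs at 6.88, 6.84 and 6.71 and neither in MEFs nor in the iPSCs. Between the levels lay *Lrrc34*, at 7.60 against 10.45, *Apoa2*, an apolipoprotein, at 6.74 against 8.80, *Sox15*, a Sox factor of ESCs, at 6.20 against 8.17, and *Fabp3*, a fatty acid carrier, at 10.33 against 12.29. *Sox15* and *Fabp3* stood between 7.26 and 8.10 and between 11.79 and 12.08 in the 3 other iPSC lines.

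A further set of probes lay outside both cell types. In MEF 4F iPSCs, 242 probes (1.79%) were at least 2-fold above MEFs and ESCs alike, and 51 (0.377%) were below both. Of the 242, 53 were detected on no other array of the series. In all the other iPSC lines, 36 were also at least 2-fold above ESCs, with the ESC array shared by these comparisons. The genes furthest above both were *Slc38a5*, *Nccrp1*, *Ly6g6c*, *Cldn11*, *Mal* and *Krt14*. *Mal*, a membrane proteolipid, was at 10.39 and was detected on no other array, and *Nccrp1*, an F-box-related protein, was at 11.60, with 5.96 and 6.10 in the iNdiPSC clones.

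That set included genes of the epidermis and keratins. Of 30 on the array, 8 were detected in MEFs, 10 in ESCs and 20 in MEF 4F iPSCs. Of these 20, 16 were at least 2-fold above MEFs, where 21.9% of all genes were, and 15 were at least 2-fold above ESCs, where 6.02% of all genes were. Most entered through the MEF 4F iPSC array only, so these counts are partly set by the rule for members. *Krt14*, a keratin of basal epidermal cells, was at 5.66 in MEFs and 10.61 in MEF 4F iPSCs and was not detected on any of the other 6 arrays. *Krt16*, *Cnfn* and *Lypd3* were at 8.37, 7.78 and 9.59 and were detected on no other array. *Lor*, loricrin of the cornified layer, was at 8.90, with 8.39 in NSCs and 7.14 in NSC 2F iPSCs. The simple epithelial keratins *Krt8* and *Krt18* were at 11.70 and 9.41, against 9.24 and 7.39 in ESCs and 10.73 and 8.80 in NSC 2F iPSCs.

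The summed signal of the epidermal list was 15300 intensity units in MEF 4F iPSCs, 1850 in MEFs and 3990 in ESCs, and between 804 and 5620 on the remaining arrays. *Krt5*, the partner of *Krt14* in basal keratinocytes, and *Trp63*, the master regulator of these cells, were not detected on any array. In bulk RNA, a few cells with much of such RNA and many cells with a little cannot be told apart.

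**Figure D5:**
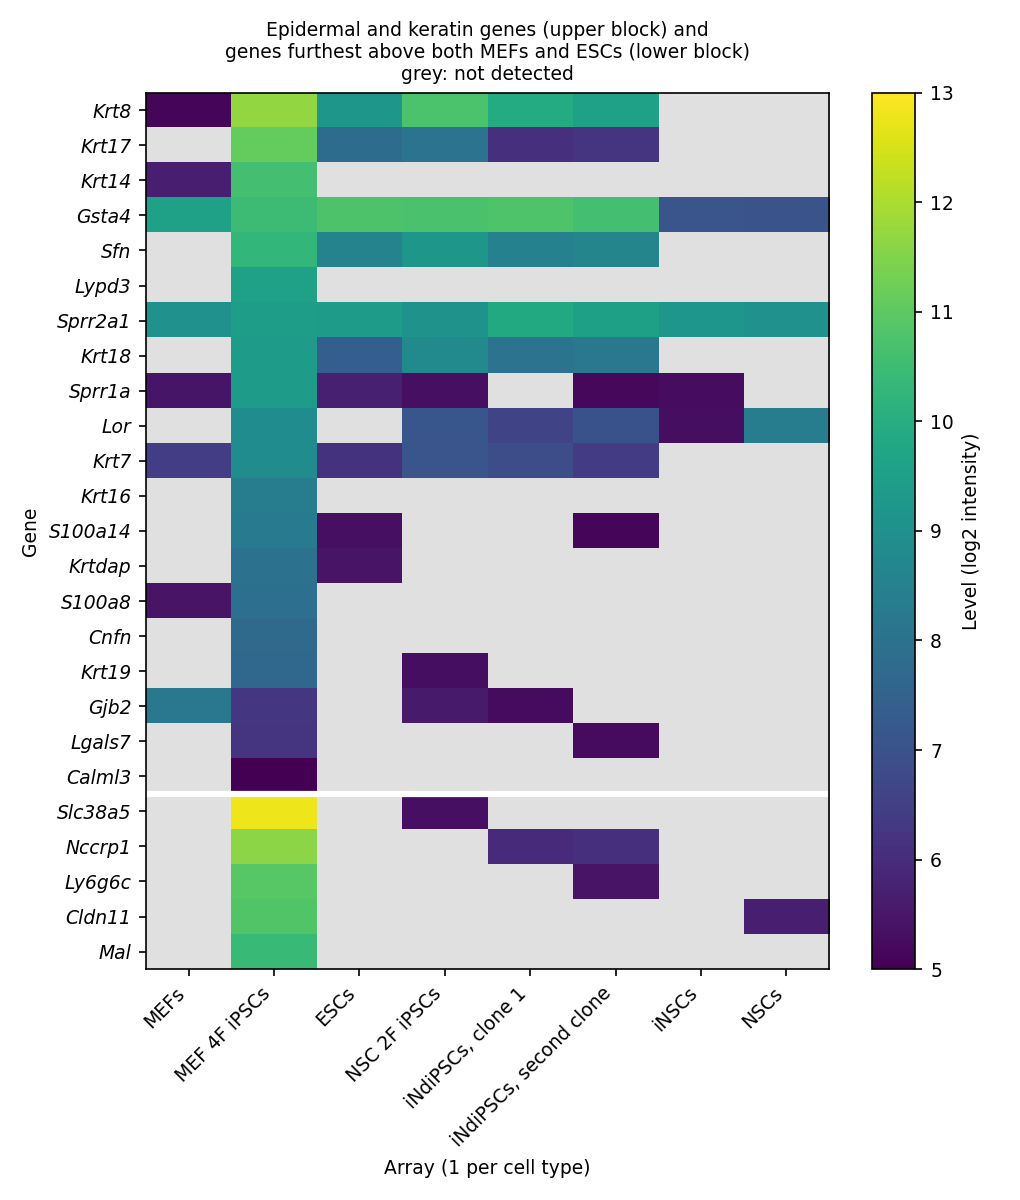
Level (colour, log2 intensity, grey where not detected) of 20 epidermal and keratin genes (upper block) and of 5 more genes furthest above both MEFs and ESCs (lower block) on each of the 8 arrays (x axis). The MEF 4F iPSC column is filled throughout, *Krt14* at 10.61 and *Slc38a5* at 12.81 among them, while the other columns are mostly grey or dark outside *Krt8*, *Krt18*, *Sfn*, *Gsta4* and *Sprr2a1*. The upper block holds only genes detected in MEFs or MEF 4F iPSCs. The lower block was chosen by its level in MEF 4F iPSCs, so this contrast is partly set by the choice of genes.

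Below both cell types, ranked by the smaller of the gaps to MEFs and to ESCs, the first genes were *Ddit3*, *Ap3m2*, *Eno2*, *Kdelr3*, *Bmp4* and *Aoc3*. *Ddit3* (CHOP), a transcription factor of the stress response, was at 5.25 in MEF 4F iPSCs against 8.46 in MEFs and 8.12 in ESCs, and at 6.05 in NSC 2F iPSCs. *Bmp4*, a ligand that supports self-renewal of ESCs in serum-free culture, was at 7.0 against 11 in MEFs and 8.68 in ESCs. *Kdelr3*, a receptor that returns proteins to the endoplasmic reticulum, was at 7.35 against 10.13 and 9.07.

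The level of fibroblast RNA in MEF 4F iPSCs can be set beside the NSC 2F iPSCs and the iNdiPSC clones, all grown with feeder cells per the study's methods. The summed signal of the fibroblast matrix list was 190000 intensity units in MEFs, 21300 in MEF 4F iPSCs, 13400 in NSC 2F iPSCs, 7410 in NSCs, 6950 and 6260 in the iNdiPSC clones and 6820 in ESCs. Of 28 genes of that list detected in MEF 4F iPSCs or ESCs, 16 stood at least 2-fold above ESCs and none below, and of 9 collagen chains 7 stood above. *Col1a1* was not detected in NSCs, and its level was 7.29 in NSC 2F iPSCs, against 7.02 in the line from MEFs. *Col3a1* and *Dcn* were also higher in NSC 2F iPSCs, at 7.25 and 8.83, than in MEF 4F iPSCs, at 6.19 and 8.53. *Emp1*, *Cd44*, *Gas6* and *Ly6c1* ran the other way. The part of feeder cells in these levels was not tested.

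Markers of other cell types gave no common direction. Over all genes, 21.9% were higher and 21.1% lower than in MEFs, and 6.02% stood above ESCs. Few genes were measured in each list, so counts near these shares say little about the list. Of 8 trophoblast genes, 2 were higher than in MEFs and 1 lower, and 3 stood at least 2-fold above ESCs with none below. *Krt7*, a keratin also on the epidermal list, was at 8.88, 5.43-fold above MEFs and 6.59-fold above ESCs. *Tfap2c*, which ESCs also express, was at 11.01, while *Cdx2* and *Elf5*, regulators of trophoblast, were at 5.52 and 5.92, near the lowest detected level of 4.97. Of 10 genes of primitive endoderm, 2 were higher and 4 lower, and *Sox17* was not detected on any array. Of 8 neural and glial genes, 2 were higher and 3 lower, and *Nes*, the neural stem cell filament, was at 8.31 in MEF 4F iPSCs against 6.28 in MEFs and 5.79 in ESCs. Of 4 blood genes, *Laptm5* was higher, at 11.09, beside 11.66 in ESCs, and 1 was lower. Of 7 endothelial genes 3 were higher and 2 lower, with *Esam*, an adhesion molecule, at 9.0, 3.39-fold above ESCs. Of 9 genes of muscle, bone and fat 3 were higher and 4 lower. The part of other cell types in these levels was not tested. The Y-linked genes *Eif2s3y* and *Kdm5d* were detected at 9.89 and 6.35 in MEFs and at 10.16 and 6.46 in the iPSCs, and *Xist* was at 5.67 in MEFs and was not detected in the iPSCs. Neither Y-linked gene was detected in NSCs or NSC 2F iPSCs, where *Uty*, also Y-linked, was at 5.21 and 5.25, near the lowest detected level. *Xist* was at 9.18 in NSCs and not detected in NSC 2F iPSCs, so comparisons with these arrays also differ in sex-linked genes. The median difference between MEF 4F iPSCs and ESCs lay between -0.19 and 0.02 on each of the autosomes and the X chromosome.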

How the data were processed

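Total RNA of 8 cell types was hybridised to Illumina mouse bead arrays, 1 array each. The deposited table holds probe intensity values, which the authors exported from BeadStudio 3.2 with a detection p-value per probe and did not normalize. A second deposited table holds the authors' processed log2 values, for which their processing notes name RMA and lumi. The samples were grouped by their titles, and nothing shows more than 1 culture per array. The 8 arrays were background-corrected and quantile-normalized together with neqc (limma 3.58.1, R 4.3.3, offset 16), which gives log2 levels. Values with a detection p of 0.01 or more were raised to the lowest detected level of the array. Each gene was read by its probe with the highest mean over 8 arrays. Of 25697 probes, 23978 have 1 gene symbol in the platform annotation and 1719 are unnamed here, and 23962 matched RefSeq (GRCm38.p6) by gene ID. With 1 array per condition no test was possible, and the number of arrays limits the precision. Differences of at least 2-fold were counted. The step was tested on simulated data.

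Named genes were the 4 factors, the 10 largest differences each way, the 6 largest gaps in each class, the 4 largest members of each of 32 lists with members running against their list, and 36 genes that the study names and the arrays hold. The members and lists were chosen with earlier results of these data known. Genes outside that rule were named after their values were seen. Motif searches and the choice of promoters were made after the values were seen. The octamer ATTTGCAT and the CArG box, CCWWWWWWGG with W for A or T, were also searched. The octamer was held by 1.7% of genes higher in MEF 4F iPSCs, 2.08% of those lower and 1.97% of all genes. For the CArG box these shares were 1.28%, 1.95% and 1.81%. The octamer was held by 2 of 22 pluripotency genes and the CArG box by 2 of 13 contractile genes. Alternatives changed the background correction, scaling, source of values, arrays normalized together, detection rule, fold and probe choice. List genes with no named probe here, such as *Tfcp2l1*, *Epcam* and *Snai2*, were not analysed here. No columns held comparisons made by the authors.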

Additional observations from a re-analysis of the deposited data

Results flagged for a closer look

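For 20 of the named genes, MEF 4F iPSCs differed from MEFs by at least 2-fold in one direction and NSC 2F iPSCs differed from NSCs by at least 2-fold in the other. Each comparison has 1 array a side, and the difference between the comparisons was not tested. Each difference is taken from its own starting cell, so the signs also depend on how MEFs and NSCs differ. Between MEF 4F iPSCs and NSC 2F iPSCs, these genes differed by 1.05-fold for *Cxcl12* up to 3.67-fold for *Emp1*. All differences are on the log2 scale, the one from MEFs first and the one from NSCs second. Where NSCs or MEFs gave no detected signal, the difference was taken from the lowest detected level of that array and is a lower bound, written as "at least".

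Matrix, contractile and mesenchymal genes were lower than in MEFs but higher than in NSCs. The values were -5.43 and at least 2.10 for *Col1a1*, -5.72 and at least 2.06 for *Col3a1*, -3.20 and 1.47 for *Col4a1*, and -6.19 and at least 1.77 for *Col6a1*. They were -8.52 and at least 1.78 for *Mgp*, -4.11 and at least 1.09 for *S100a4*, -3.37 and at least 1.10 for *Tagln*, and -3.21 and at least 3.2 for *Tpm2*. A second *Col3a1* probe, at 8.31 in MEFs, was not detected in NSCs or NSC 2F iPSCs.

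Secreted factors and other genes ran the same way. The values were -4.0 and at least 2.66 for *Bmp4*, -4.63 and 1.37 for *Cxcl12*, -3.59 and at least 5.36 for *Igf2*, and -6.23 and at least 1.98 for *Cyp1b1*. They were -1.53 and 3.06 for *Emp1*, -1.66 and at least 1.79 for *Gata2*, -2.08 and 4.15 for *Ifitm3*, -2.78 and 1.99 for *Kdelr3*, and -1.83 and 3.80 for *Klf4*. For *Cxcl12*, other probes at 11.11 and 10.07 in MEFs were not detected in NSCs or NSC 2F iPSCs. With its median probe, *Klf4* differed from MEFs by only -0.24. The opposite signs of these genes therefore rest on the probe used.

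Genes of neural cells ran the other way. *Aldoc* differed by at least 2.37 and -6.90, *Nes* by 2.04 and -3.90, and *Olig1* by at least 3.91 and -5.47.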

How the results depend on the processing

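Without background correction, 1574 probes were higher and 1589 lower, against 2788 and 2767, the shares at the ESC level were 96.3% and 92.0%, the probes left at the MEF level were 37 and 33, and 134 probes lay off both cell types, against 293. With a 4-fold threshold these values were 864 and 1023, 99.1% and 95.5%, 5 and 22, and 92. With the authors' processed values the shares were 85.8% of ESC-high and 83.3% of MEF-high probes, with 343 ESC-high probes left at the MEF level and 497 probes off both. Scaling to the 75th percentile gave 87.9% for the MEF-high share, and 1 probe per gene gave 92 ESC-high probes left at the MEF level. The cause was not tested, except that a higher threshold and 1 probe per gene leave fewer probes by construction. Of the named genes at 2-fold or more, 25 no longer reached it without background correction, and none of 204 named genes turned direction under the 6 alternatives of normalization, source and detection run for them. With the median probe of a gene, 370 of 528 list genes were called against 378, and *Cd44* turned sign, at 0.97. No paired analysis was possible because each condition has 1 array, which also means that no replicate could be left out.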
